A study of Drosophila melanogaster with 18 samples.

Results

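The JAK/STAT pathway was followed here through 8 of its genes: the ligand genes upd1, upd2 and upd3, the receptor gene dome, its shorter relative et, the kinase gene hop, the transcription factor gene Stat92E and the feedback gene Socs36E. They were chosen by symbol, and all 8 were found among the 17753 gene entries of the count table. RNA came from DL1 cells, a cultured haemocyte-like line of Drosophila melanogaster labelled wild type apart from the RNA interference. Cells were bathed in 2 µg of long dsRNA (double-stranded RNA, taken up by fly cells, where it directs silencing of the transcript it matches) and grown for 3 days. The groups were dsRNA against IntS4 or IntS6 (both encode parts of Integrator, which cuts RNA as it is being transcribed), against mts or Pp2A-29B (which encode the catalytic and the scaffold part of PP2A, a serine/threonine phosphatase), control dsRNA against the bacterial B-gal gene, and a Mock group given no dsRNA. Each group had 3 libraries, lettered A, B and C in the labels and called sets here. Nothing in the labels says that the letters mark separate cultures, so p-values measure only the spread between these libraries of 1 cell line, which may be technical.

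In flies, secreted Upd proteins bind the receptor Dome, which activates the associated kinase Hop. Hop phosphorylates Stat92E, which enters the nucleus and raises target genes, among them Socs36E, whose product damps the pathway. The protein encoded by et lacks the signalling part of Dome and lowers signalling when it pairs with it. In blood cells the pathway is known for its part in keeping progenitors undifferentiated, in lamellocyte formation after wasp attack and, when Hop is overactive, in blood cell tumours. Haemocytes are also a source of Upd2 and Upd3 in infection and stress.

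Library totals ran from 13445318 to 19298644 counts, of which 3545828 to 6325688 lay outside ribosomal RNA. The ribosomal share was highest with mts dsRNA in each set, at 73.38, 73.03 and 74.83% in sets A, B and C. It was 71.75, 68.32 and 66.33% with B-gal dsRNA and 70.76, 67.22 and 65.05% with the IntS4 label. In the check of the labels, mts fell with its own dsRNA (64.0 ± 15.4 against 150 ± 16.3 CPM, the count scaled to library size, with B-gal dsRNA; mean ± SD, n = 3) and Pp2A-29B fell with its own (45.9 ± 3.68 against 157 ± 8.11 CPM). For IntS4 the labels went the other way, with more counts under its own dsRNA (3111, 853 and 401 in sets A, B and C, against 179, 216 and 214 with B-gal dsRNA). IntS6 counts were higher in the libraries labelled IntS6 dsRNA (2682, 795 and 722, against 488, 517 and 482 with B-gal dsRNA). These groups are therefore named by their labels. Both PP2A genes were also lower with the Integrator labels than with B-gal dsRNA. With the IntS4 and IntS6 labels mts stood at 105 ± 2.45 and 106 ± 14.5 CPM, and Pp2A-29B at 121 ± 3.75 and 125 ± 3.87 CPM. IntS6 was at 47.9 ± 5.56 CPM with the IntS4 label, 41.8 ± 4.63 with mts and 42.8 ± 2.92 with Pp2A-29B dsRNA, against 29.8 ± 3.26 CPM with B-gal dsRNA. Of 8 plasmatocyte markers, all were detected, with srp at 122 and He at 31.9 CPM in B-gal libraries, but Hml, NimC1 and Sr-CI stood at only 2.86, 0.25 and 0.153 CPM there. The 8 markers summed to 809 to 1205 CPM in the libraries labelled IntS4 dsRNA, 804 to 1109 in those labelled IntS6 dsRNA, 469 to 518 with mts, 389 to 428 with Pp2A-29B, 217 to 236 with B-gal dsRNA and 219 to 236 in Mock. Hml carried most of the rise with the Integrator labels, at a mean of 609 and 601 CPM with the IntS4 and IntS6 labels, 115 with mts and 63.5 with Pp2A-29B dsRNA, against 2.86 CPM with B-gal dsRNA. In contrast eater was at 43.8 CPM with the IntS4 label and 50.5 CPM with the IntS6 label, against 44.2 CPM with B-gal dsRNA. It was higher with the PP2A dsRNAs, at 78.3 CPM with mts and 90.8 CPM with Pp2A-29B. The sum of 3 lamellocyte markers was 367 to 415, 224 to 288, 440 to 672, 270 to 385, 107 to 147 and 118 to 167 CPM in the same order of groups. Of these, atilla stayed under 1 CPM with both Integrator labels (0.798 and 0.93), and was at 51.7 with mts and 14.4 with Pp2A-29B dsRNA, against 0.563 CPM with B-gal dsRNA. PPO3 stood at 209, 61.4, 142 and 52.3 CPM with the IntS4, IntS6, mts and Pp2A-29B labels, against 5.69 CPM with B-gal dsRNA. For mys, which made up most of the control sums, the means were 183, 191, 354 and 252 CPM, against 114 CPM. The part of these shifts in the results below was not tested, and in bulk RNA fewer cells of a type and less RNA per cell cannot be told apart.

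All 8 members passed the filter on low counts in every group except upd2, which passed only through the libraries labelled IntS4, IntS6, mts and Pp2A-29B dsRNA and so had to differ from the controls. Genes are called changed at an adjusted p under 0.05 in edgeR's quasi-likelihood test (Benjamini-Hochberg over all 8699 genes tested, two-sided). Against B-gal dsRNA, 4 of the 8 were called in the libraries labelled IntS4 dsRNA (2 higher, 2 lower), where 47.1% of all tested genes were called. In the libraries labelled IntS6 dsRNA 5 of 8 were called (3 higher, 2 lower; background 45.7%), with mts dsRNA 6 of 8 (3 higher, 3 lower; background 51.4%) and with Pp2A-29B dsRNA 6 of 8 (4 higher, 2 lower; background 38.8%). With 8 genes, and backgrounds this high, these counts are not read as a result about the pathway as a whole. What follows concerns which members moved, in which direction and by how much. The median log2 fold change of the members was 0.10, 0.10, 0.15 and 0.17 in the 4 comparisons, against -0.01, -0.01, 0.00 and -0.01 over all tested genes. The 4 comparisons share their B-gal libraries.

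Control dsRNA alone moved none of the members past the threshold. Between B-gal dsRNA and Mock, edgeR called 0 of 8 members and 0 of 8699 genes (background 0%), although 243 genes had an unadjusted p under 0.05. DESeq2 likewise called 0, and 198 genes had such a p there. No member reached an unadjusted p under 0.05 in this edgeR comparison. The largest fitted difference was that of upd2 (log2 -0.90, SE 1.13), on 3 counts in the B-gal and 6 in the Mock libraries. The next was upd1, at 20.1 ± 1.68 against 17.2 ± 1.78 CPM, with overlapping libraries.

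**Figure D1:**
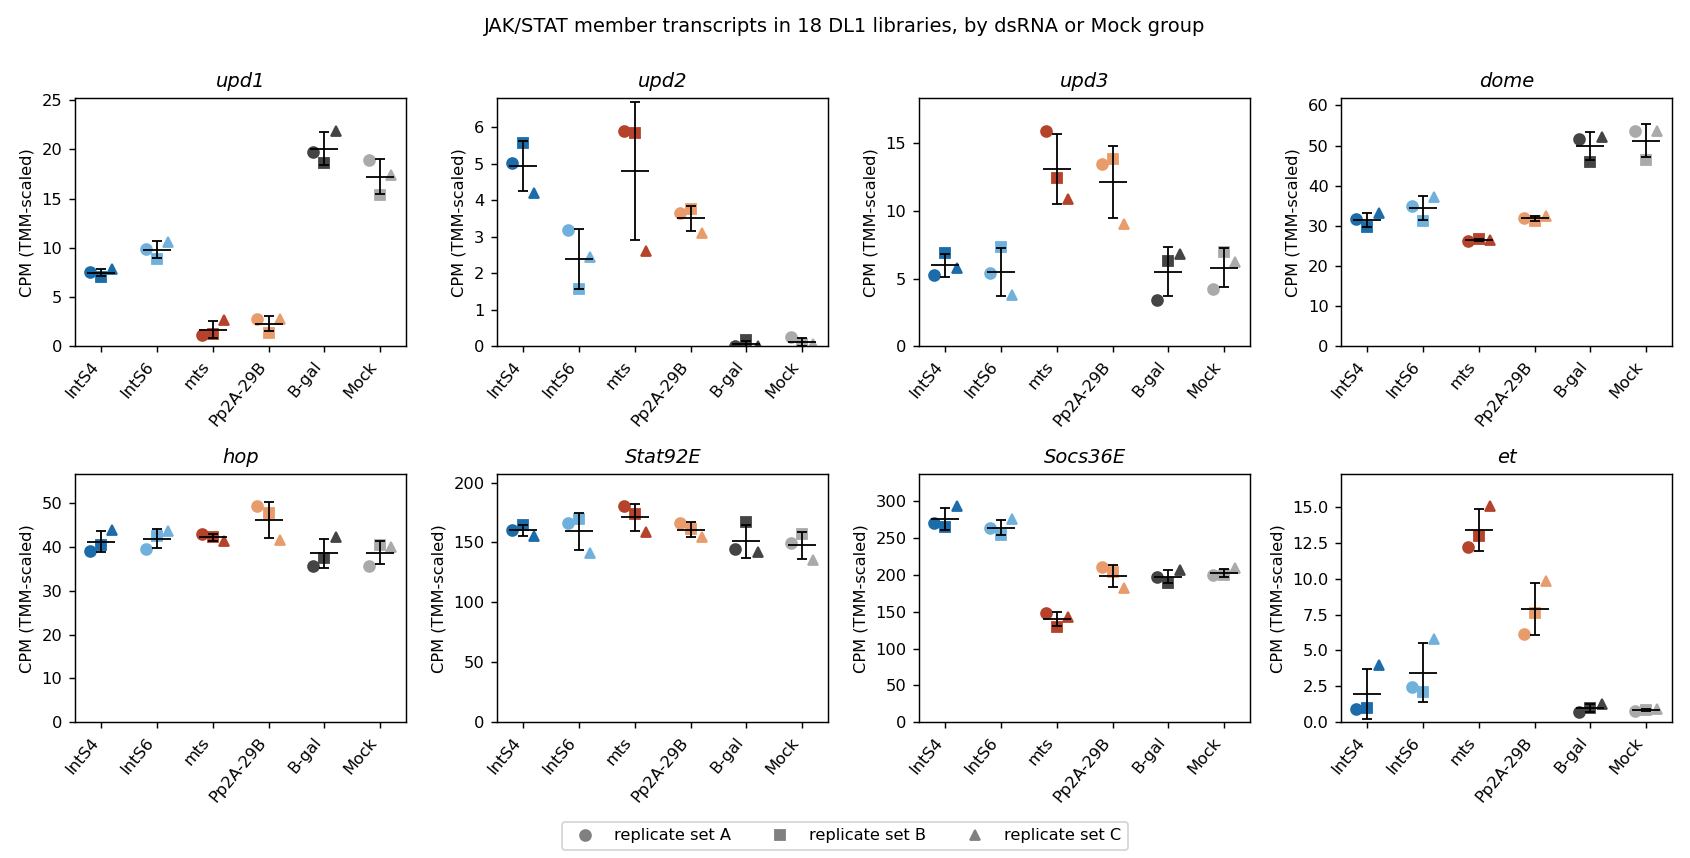
TMM-scaled CPM of each member in all 18 libraries; each panel's linear axis starts at 0, points are libraries with a symbol for each replicate set, and bars give the mean and SD of 3. The upd1 libraries of the 4 groups on the left all lie at or below 10.6 CPM, under the lowest B-gal library at 18.6 CPM, while for Stat92E these 4 groups overlap the B-gal libraries.

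The ligand gene upd1 (FBgn0004956; BDGP6 chromosome X, 18305354 to 18309291, minus strand) fell in all 4 groups. Its product is the ligand that patterns the embryo and sustains germline stem cells of the testis. In the libraries labelled IntS4 dsRNA its level was 7.59 CPM in set A, 7.08 in set B and 7.80 in set C, and in those labelled IntS6 dsRNA at 9.92, 8.88 and 10.6 CPM. It stood at 1.16, 1.20 and 2.70 CPM with mts dsRNA and 2.78, 1.38 and 2.72 CPM with Pp2A-29B dsRNA. The B-gal libraries held 19.7, 18.6 and 21.9 CPM and the Mock libraries 18.9, 15.3 and 17.4 CPM. No library of the 4 groups overlapped a control library, and the 2 PP2A groups lay below both groups with Integrator labels. Levels were thus 37.3% of the B-gal mean in the IntS4-labelled libraries (log2 -1.43, SE 0.19, adjusted p = 6.4e-06) and 48.8% in the IntS6-labelled ones (log2 -1.03, SE 0.19, adjusted p = 0.00018). They were 8.4% with mts dsRNA (log2 -3.62, SE 0.24, adjusted p = 1.8e-09) and 11.4% with Pp2A-29B dsRNA (log2 -3.12, SE 0.22, adjusted p = 8.2e-09).

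The ligand gene upd2 (FBgn0030904; X, 18240654 to 18243284, minus strand) was almost silent in control cells and present in all 4 other groups. Its product is a ligand released from the fat body in response to feeding and from haemocytes. Its counts were 69, 110 and 64 in the libraries labelled IntS4 dsRNA, which is 5.03, 5.56 and 4.20 CPM, and 57, 23 and 37 in those labelled IntS6 dsRNA, which is 3.19, 1.56 and 2.44 CPM. With mts dsRNA it had 5.91, 5.86 and 2.62 CPM, and with Pp2A-29B dsRNA 3.64, 3.76 and 3.11 CPM. The B-gal libraries held 0, 3 and 0 counts and the Mock libraries 4, 1 and 1. Every library of the 4 groups lay above every control library. With 3 B-gal counts, the ratio of normalised counts to B-gal was 83.5 in the IntS4-labelled libraries (95% counting interval 28.2 to 408) and 41.0 in the IntS6-labelled ones (13.7 to 202). It was 83.0 with mts dsRNA (28.0 to 406) and 58.7 with Pp2A-29B dsRNA (19.7 to 287). Such intervals reflect counting error alone and leave out the spread between libraries. They take counts as independent, which PCR copies of a molecule are not. The adjusted p of upd2 in edgeR was 5.3e-08, 2.2e-06, 1.2e-07 and 9.5e-07 in the same order. As upd2 passed the filter only through these 4 groups, these p-values add no support for its rise. The fitted log2 fold changes, 6.20, 5.17, 6.17 and 5.70, depend on the prior count. Without the set B control, which holds all 3 B-gal counts, they were 9.29, 8.26, 9.26 and 8.79.

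The ligand gene upd3 (FBgn0053542; X, 18277233 to 18284596, plus strand) was higher with both PP2A dsRNAs. Its product is the ligand that haemocytes and gut cells make on infection or damage. It stood at 15.9, 12.4 and 10.9 CPM with mts dsRNA and at 13.5, 13.8 and 9.06 CPM with Pp2A-29B dsRNA. The IntS4-labelled libraries held 5.25, 6.87 and 5.77 CPM and the IntS6-labelled ones 5.44, 7.32 and 3.75 CPM. In the B-gal libraries it stood at 3.41, 6.30 and 6.79 CPM and in Mock at 4.21, 6.96 and 6.24 CPM. The PP2A groups lay above all other libraries, and the remaining 4 groups overlapped one another. Against B-gal the log2 fold change was 1.24 with mts (SE 0.26, adjusted p = 0.00062) and 1.13 with Pp2A-29B dsRNA (SE 0.26, adjusted p = 0.0021). It was 0.11 in the IntS4-labelled libraries (95% interval -0.46 to 0.68) and -0.01 in the IntS6-labelled ones (-0.59 to 0.56), neither past the threshold (adjusted p = 0.76 and 0.97).

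Per kilobase of exon, the makeup of the ligand transcripts differed more between groups than their summed level. The sum over upd1, upd2 and upd3 was 7.57 ± 0.518 CPM per kb in the IntS4-labelled libraries, 6.82 ± 0.471 in the IntS6-labelled ones, 8.85 ± 1.72 with mts and 7.96 ± 1.25 with Pp2A-29B dsRNA (SD, n = 3). The B-gal libraries held 8.93 ± 1.11 and the Mock libraries 8.18 ± 0.199 CPM per kb. The IntS6-labelled sums, 6.31 to 7.24, lay below every B-gal library (7.85 to 10.1) and every Mock library (8.06 to 8.41), and the IntS4-labelled, mts and Pp2A-29B sums overlapped those of B-gal. The share of upd1 in this sum was 31.8 ± 3.62% in the IntS4-labelled libraries, 46.2 ± 6.67% in the IntS6-labelled ones, 6.67 ± 4.80% with mts and 9.54 ± 4.12% with Pp2A-29B dsRNA. In B-gal libraries it was 72.4 ± 7.08% and in Mock 67.3 ± 7.12%. The share of upd3 was 66.6 ± 3.53% with mts and 68.1 ± 5.11% with Pp2A-29B dsRNA, against 27.3 ± 6.73% with B-gal dsRNA. The upd2 share was 32.8 ± 2.97% in the IntS4-labelled libraries and 17.7 ± 5.68% in the IntS6-labelled ones. It was 26.7 ± 7.37% with mts and 22.4 ± 1.58% with Pp2A-29B dsRNA, against 0.323 ± 0.559% with B-gal dsRNA. The mts libraries (18.6 to 33.1%) overlapped the IntS4-labelled ones (29.4 to 34.7%). These sums and shares describe the libraries and were not tested. The genes themselves lie within 68638 bases of chromosome X.

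**Figure D2:**
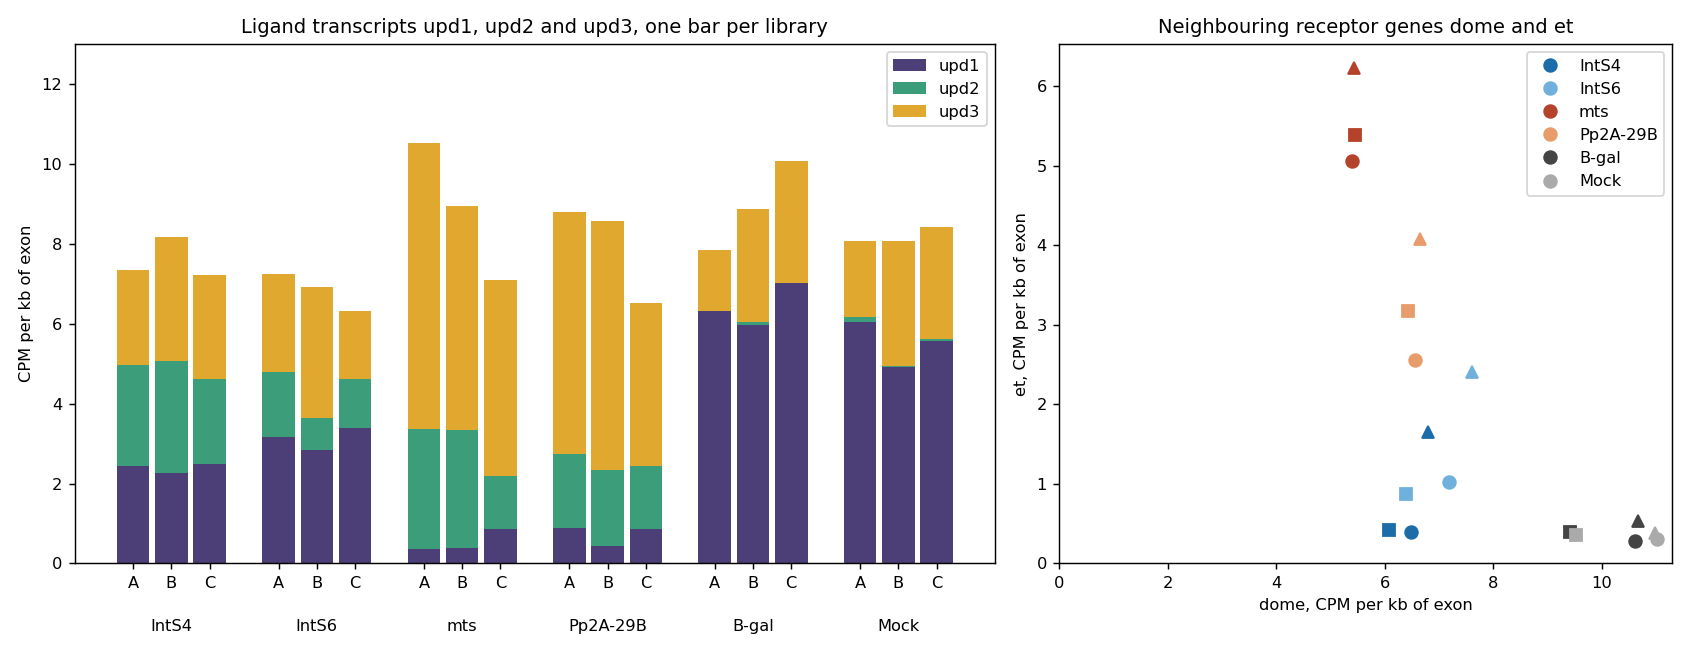
Left, CPM per kb of exon of upd1, upd2 and upd3 stacked for each library, by group and replicate set (A, B, C); right, et against dome in CPM per kb of exon, 1 point per library, with circles, squares and triangles for sets A, B and C. The upd1 part is larger in every B-gal and Mock bar than in any other, it is small in the mts and Pp2A-29B bars, which overlap, and et nears the level of dome in the mts libraries alone.

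The receptor genes dome and et, which lie 169 bases apart on the same strand, moved in opposite directions in 3 of the 4 comparisons, with the IntS6, mts and Pp2A-29B labels. With the IntS4 label et was not called. The gene dome (FBgn0043903; X, 19676061 to 19683518, minus strand), for the signalling receptor, fell in all 4 groups. It stood at 31.6, 29.6 and 33.1 CPM in the IntS4-labelled libraries, 35.0, 31.2 and 37.1 in the IntS6-labelled ones, 26.3, 26.6 and 26.5 with mts and 31.9, 31.3 and 32.4 with Pp2A-29B dsRNA. In B-gal libraries it stood at 51.7, 45.9 and 52.0 CPM and in Mock at 53.7, 46.5 and 53.5 CPM. None of the 4 groups overlapped the controls, and the mts libraries lay below all others. Levels were 63.0%, 69.0%, 53.1% and 63.9% of the B-gal mean with IntS4, IntS6, mts and Pp2A-29B labels. The log2 fold changes were -0.67 (SE 0.09, adjusted p = 4.2e-06), -0.53 (SE 0.09, adjusted p = 5.5e-05), -0.91 (SE 0.09, adjusted p = 1.6e-07) and -0.65 (SE 0.09, adjusted p = 1.4e-05).

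The gene et (FBgn0031055; X, 19672312 to 19675891, minus strand) begins just beyond the 3′ end of dome. It was raised most with the PP2A dsRNAs, at 12.2, 13.0 and 15.0 CPM with mts and 6.18, 7.64 and 9.84 CPM with Pp2A-29B dsRNA. The IntS6-labelled libraries held 2.47, 2.10 and 5.79 CPM and the IntS4-labelled ones 0.949, 1.01 and 4.00 CPM. B-gal libraries held 0.682, 0.965 and 1.28 CPM and Mock libraries 0.743, 0.877 and 0.917 CPM. In each of the 6 groups the set C library was the highest. Against B-gal the log2 fold change was 3.75 with mts (SE 0.44, adjusted p = 1.4e-06) and 2.98 with Pp2A-29B dsRNA (SE 0.45, adjusted p = 3.8e-05). In the IntS6-labelled libraries it was 1.79 (SE 0.48, adjusted p = 0.0049), and without their set C library 1.20 (adjusted p = 0.054, range 1.5e-05 to 0.054 over its alternatives). In the IntS4-labelled libraries it was 0.98 and missed the threshold (SE 0.51, adjusted p = 0.13). There it became -0.01 without their set C library, and it passed with the replicate block (0.94, adjusted p = 0.039), without the filter (0.95, adjusted p = 0.039) and without their set B library (1.34, adjusted p = 0.046), in a range of 0.039 to 0.99 over its alternatives. Per kilobase of exon, et reached 102 ± 10.8% of dome with mts and 49.9 ± 11.1% with Pp2A-29B dsRNA, against 3.96 ± 1.18% with B-gal dsRNA.

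The exons of et share 42 bases with those of Zw, the glucose-6-phosphate dehydrogenase gene on the other strand. Libraries were strand-specific, per the labels, but the sources used here do not say whether counting used strand. Zw stood at 32.5 ± 5.11 CPM with mts and 27.0 ± 1.10 CPM with Pp2A-29B dsRNA, against 14.4 ± 3.18 CPM with B-gal dsRNA (log2 1.18 and 0.91, adjusted p = 2.4e-05 and 0.00053). It was 14.8 ± 2.85 and 19.5 ± 2.45 CPM in the IntS4- and IntS6-labelled libraries (log2 0.05 and 0.44, adjusted p = 0.84 and 0.051). Its part in the et values was not tested.

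The kinase and transcription factor genes between receptor and nucleus differed little among groups. The Janus kinase gene hop (FBgn0004864; X, 11360930 to 11368098, minus strand) stood at 39.2, 40.5 and 43.9 CPM in the IntS4-labelled libraries, 39.5, 42.4 and 43.7 in the IntS6-labelled ones, 43.1, 42.2 and 41.4 with mts and 49.2, 47.7 and 41.5 with Pp2A-29B dsRNA. B-gal libraries held 35.8, 37.5 and 42.3 CPM and Mock libraries 35.7, 40.3 and 40.04 CPM. All 4 groups overlapped the B-gal libraries. The log2 difference was 0.10 (95% interval -0.09 to 0.29), 0.12 (-0.07 to 0.31) and 0.13 (-0.06 to 0.32) with IntS4, IntS6 and mts labels, none past the threshold (adjusted p = 0.41, 0.31 and 0.24). With Pp2A-29B dsRNA it was 0.26 (interval 0.07 to 0.45, adjusted p = 0.029). That call was lost without the set A or set B library of either group (0.21 to 0.24, adjusted p = 0.087 to 0.13), without the filter (0.29, adjusted p = 0.064) and with only these groups in the fit (0.27, adjusted p = 0.091).

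Stat92E (FBgn0016917; 3R, 20535323 to 20552311, minus strand), for the only STAT transcription factor of the fly, did not pass in any of the 4 comparisons. Its libraries held 160, 165 and 156 CPM with the IntS4 label, 166, 170 and 141 with the IntS6 label, 180, 174 and 158 with mts and 166, 161 and 154 with Pp2A-29B dsRNA. B-gal libraries held 144, 167 and 142 CPM and Mock libraries 150, 157 and 135 CPM. Each of the 4 groups overlapped the B-gal libraries, while the mts libraries all lay above the Mock libraries, a pair that was not tested. Log2 differences from B-gal were 0.09 (95% interval -0.11 to 0.28), 0.08 (-0.12 to 0.27), 0.18 (-0.01 to 0.37) and 0.09 (-0.10 to 0.28). The adjusted p was 0.47, 0.53, 0.11 and 0.47 in the same order. With mts dsRNA, Stat92E passed with the replicate block (0.18, adjusted p = 0.034), with ribosomal RNA left out (0.22, adjusted p = 0.046) and without the set B control (0.26, adjusted p = 0.042), in a range of 0.034 to 0.3 over its alternatives.

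The feedback gene Socs36E (FBgn0041184; 2L, 18138675 to 18152417, minus strand), for a suppressor of cytokine signalling, moved in opposite directions with the Integrator labels and with mts dsRNA. It stood at 270, 265 and 293 CPM in the IntS4-labelled libraries and 264, 254 and 275 CPM in the IntS6-labelled ones. With mts dsRNA it stood at 148, 130 and 143 CPM, and with Pp2A-29B dsRNA at 211, 204 and 182 CPM. B-gal libraries held 197, 190 and 207 CPM and Mock libraries 199, 200.4 and 209 CPM. The Integrator-labelled libraries lay above and the mts libraries below every control library, while Pp2A-29B overlapped them. Against B-gal it rose by 0.48 on the log2 scale in the IntS4-labelled libraries (SE 0.08, adjusted p = 7.3e-05) and by 0.42 in the IntS6-labelled ones (SE 0.08, adjusted p = 0.00032). It fell by 0.50 with mts dsRNA (SE 0.08, adjusted p = 5.9e-05), and with Pp2A-29B dsRNA it differed by 0.01 (95% interval -0.16 to 0.18, adjusted p = 0.95). The next gene downstream, kel, which encodes the ring canal protein Kelch and begins 592 bases away on the same strand, had 55.3 ± 1.02, 53.6 ± 2.42, 28.5 ± 2.06 and 33.9 ± 3.05 CPM in the 4 groups, against 40.9 ± 1.99 CPM with B-gal dsRNA. It was called in all of them, at log2 0.44, 0.39, -0.52 and -0.27 (adjusted p = 0.00024, 0.00072, 5.2e-05 and 0.015). The lncRNA gene CR44478, inside Socs36E on the other strand, held 27 counts in all 18 libraries and was not tested.

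**Figure D3:**
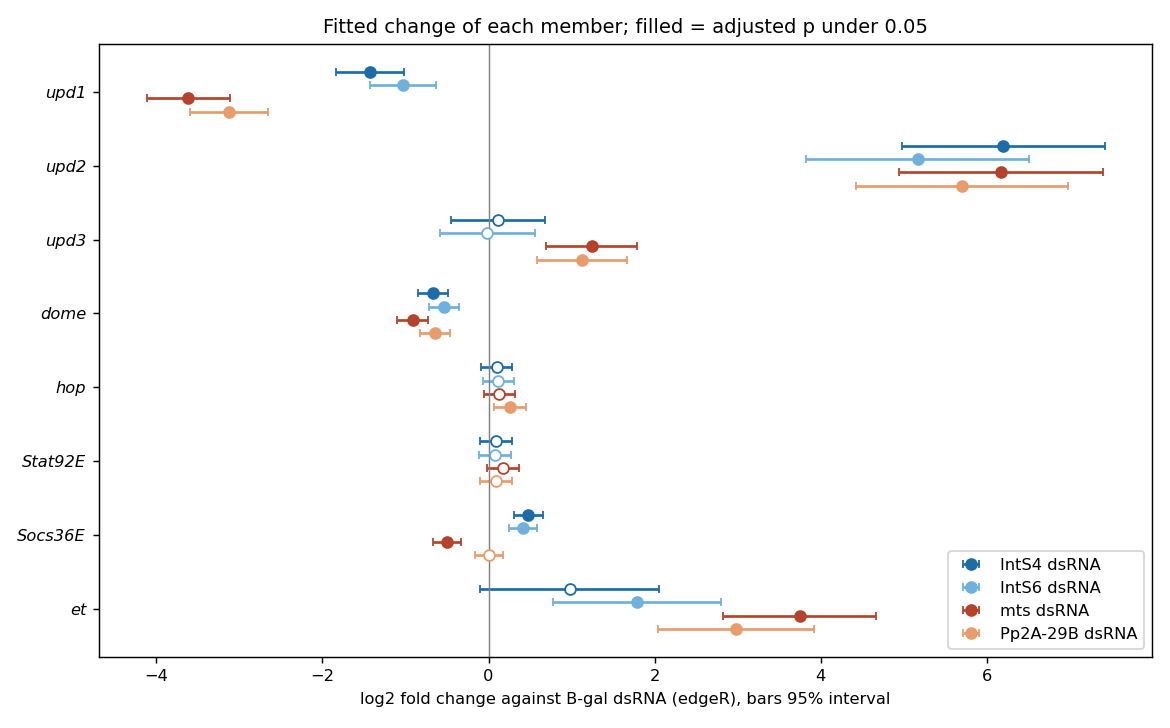
Fitted log2 fold change of each member against B-gal dsRNA in the 4 comparisons, with 95% intervals; filled points have an adjusted p under 0.05. upd1 and dome lie left of 0 in all 4 comparisons and upd2 right of 0, while Socs36E lies on both sides.

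The direct comparisons test where the dsRNAs differ from each other. Between IntS6- and IntS4-labelled libraries edgeR called 0 of 8 members (background 6.54%, of which 2.53% higher and 4.01% lower), with 1 at an unadjusted p under 0.05. That was upd2, at 2.40 ± 0.819 CPM in the IntS6-labelled against 4.93 ± 0.687 CPM in the IntS4-labelled libraries (log2 -1.03, SE 0.33, adjusted p = 0.071). It passed with DESeq2, without the filter and with only these groups in the fit (adjusted p = 0.03, 0.012 and 0.031), in a range of 0.012 to 0.26 over its alternatives. Without the IntS4-labelled set C library et passed instead (log2 1.80, adjusted p = 0.011, range 0.011 to 0.88), against 0.81 with it. Between Pp2A-29B and mts dsRNA 1 of 8 was called, and it was higher (background 9.75%, of which 4.81% higher and 4.94% lower). It was Socs36E, at 199 ± 15.1 CPM with Pp2A-29B and 140 ± 9.49 CPM with mts dsRNA (log2 0.50, SE 0.08, adjusted p = 0.001). In this pair dome (log2 0.27, adjusted p = 0.065) and et (log2 -0.76, adjusted p = 0.17) were not called. Both passed with the replicate block, at log2 0.27 for dome (adjusted p = 0.018, range 0.018 to 0.27 over its alternatives) and -0.80 for et (adjusted p = 0.02, range 0.02 to 0.43). Without the filter and with only these groups in the fit, et passed too (adjusted p = 0.032 and 0.033).

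PP2A and Integrator labels parted at upd1, upd3, Socs36E and et. With mts dsRNA against the IntS4-labelled libraries 5 of 8 members were called, 2 higher and 3 lower (background 52.4%, of which 22.4% higher and 30.0% lower). Against the IntS6-labelled ones 6 of 8 were called, 3 higher and 3 lower (background 50.4%, of which 22.0% higher and 28.4% lower). With Pp2A-29B dsRNA 4 of 8 were called against either, 2 higher and 2 lower. The background was 44.1% against the IntS4-labelled libraries (18.0% higher, 26.1% lower) and 42.1% against the IntS6-labelled ones (17.5% higher, 24.6% lower). In mts against IntS4- and IntS6-labelled libraries, upd1 was lower by log2 values of -2.19 and -2.58 (adjusted p = 8.5e-07 and 8.9e-08). upd3 was higher there by 1.13 and 1.26 (adjusted p = 0.0013 and 6e-04). Socs36E was lower by -0.98 and -0.92 (adjusted p = 1.4e-08 and 3.8e-08) and et higher by 2.77 and 1.96 (adjusted p = 1.4e-05 and 0.00027). With Pp2A-29B dsRNA the same contrasts gave -1.70 and -2.09 for upd1, 1.01 and 1.14 for upd3, -0.47 and -0.41 for Socs36E and 2.00 and 1.20 for et, all past the threshold (adjusted p of at most 0.017). Without the IntS4-labelled set C library, et was 3.76 with mts and 2.99 with Pp2A-29B dsRNA. Its call between Pp2A-29B and the IntS6-labelled libraries was lost without the IntS6-labelled set A (0.99, adjusted p = 0.081) or set B library (0.95, adjusted p = 0.076) or Pp2A-29B set C (1.01, adjusted p = 0.066).

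The receptor gene dome and the ligand gene upd2 separated these groups less firmly. dome was lower with mts dsRNA than in the IntS6-labelled libraries (log2 -0.38, SE 0.09, adjusted p = 0.0017) and in the IntS4-labelled ones (log2 -0.25, SE 0.09, adjusted p = 0.027). The second call was lost in 5 of the 6 fits that leave out a library, all but that without IntS4-labelled set B (-0.25 to -0.21, adjusted p = 0.059 to 0.098 where lost). It was also lost with DESeq2 (-0.22, adjusted p = 0.06), without the filter (-0.16, 0.34), with ribosomal RNA left out (-0.19, 0.094) and with only these groups in the fit (-0.18, 0.11). Over all tested genes, the median log2 fold change of mts was -0.06 against IntS6- and -0.07 against IntS4-labelled libraries. Both medians were -0.01 with ribosomal RNA left out. upd2 was higher with mts dsRNA than in the IntS6-labelled libraries (log2 1.00, SE 0.33, adjusted p = 0.017), with overlapping libraries. It missed the threshold without mts set A (0.83, adjusted p = 0.085), mts set B (0.85, 0.073) or IntS6-labelled set B (0.78, 0.078).

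Per kilobase of exon in B-gal libraries, Socs36E was the most abundant member (56.5 ± 2.43 CPM per kb), followed by Stat92E (29.0 ± 2.63), dome (10.2 ± 0.706), hop (7.62 ± 0.669), upd1 (6.43 ± 0.539), upd3 (2.48 ± 0.822), et (0.405 ± 0.124) and upd2 (0.0287 ± 0.0497). With mts dsRNA the order at the low end changed. There upd3 (5.89 ± 1.16), et (5.56 ± 0.605) and dome (5.43 ± 0.0335 CPM per kb) lay within their spread of each other, above upd2 (2.42 ± 0.953) and upd1 (0.540 ± 0.282).

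Beyond the members, 16 further regulators of the pathway were listed, of which 15 were found and tested. In the IntS4-labelled libraries 3 of these were higher and 9 were lower, both against B-gal dsRNA, with a median log2 fold change of -0.43, where 27.0% of all tested genes were higher and 20.2% lower. In the IntS6-labelled libraries 3 were higher and 7 lower (median -0.33, background 26.4% and 19.3%), with mts dsRNA 2 and 7 (median -0.41, 26.6% and 24.8%) and with Pp2A-29B dsRNA 2 and 6 (median -0.30, 21.0% and 17.8%). The widest change was that of wdp (windpipe), for a leucine-rich-repeat membrane protein that promotes the breakdown of Dome. It stood at 52.5 ± 12.3 CPM with the IntS4 label, 66.4 ± 5.66 with the IntS6 label, 9.39 ± 1.00 with mts and 14.3 ± 1.16 with Pp2A-29B dsRNA, against 3.05 ± 0.993 CPM with B-gal dsRNA (log2 4.10, 4.44, 1.62 and 2.22, adjusted p = 3e-12, 1.5e-12, 3e-06 and 1.1e-07). The gene ken, for a repressor of some Stat92E targets, rose to 116 ± 11.0 and 86.3 ± 7.06 CPM with the IntS4 and IntS6 labels. It fell to 27.9 ± 1.25 and 39.8 ± 1.47 CPM with mts and Pp2A-29B dsRNA, against 62.3 ± 10.8 CPM with B-gal dsRNA (log2 0.89, 0.47, -1.16 and -0.65, adjusted p = 3e-06, 0.0022, 2.6e-07 and 0.00022). The signs are those of Socs36E where both were called. apt, for a nuclear protein that restrains Stat92E signalling in ovarian border cells, was at 13.4 ± 3.50 CPM with mts against 31.2 ± 1.97 CPM with B-gal dsRNA (log2 -1.22, adjusted p = 7e-07). The phosphatase gene Ptp61F, whose product opposes Hop and Stat92E, fell by 0.58, 0.43, 0.55 and 0.40 on the log2 scale in the 4 groups. It was picked after its values were seen, and such a fall was not particular to it. E(bx) stood at 105, 110, 105 and 126 CPM in the 4 groups, against 189 CPM with B-gal dsRNA. Su(var)2-10 had 39.9, 38.9, 41.5 and 50.6 CPM, against 63.3 CPM.

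Of 16 reported targets, 11 were tested. The stress-induced Turandot genes TotB, TotC, TotF, TotX and TotZ held at most 15 counts each over all 18 libraries. In the IntS4-labelled libraries 7 of 11 were higher and 2 lower (median log2 0.90), in the IntS6-labelled ones 5 and 2 (0.85), with mts dsRNA 4 and 3 (-0.17) and with Pp2A-29B dsRNA 5 and 2 (0.77). Backgrounds are those of the regulators above, and TotA passed the filter only through groups in which it was high. The complement-like thioester protein genes Tep1 and Tep2 rose in all 4 groups. Tep1 stood at 298 ± 49.5, 139 ± 28.2, 77.6 ± 28.5 and 53.5 ± 9.21 CPM against 16.8 ± 3.19 CPM with B-gal dsRNA (log2 4.14, 3.05, 2.20 and 1.67, largest adjusted p = 2.2e-05). Tep2 had log2 fold changes of 2.56, 2.42, 1.80 and 1.53. Tep4, another thioester protein gene on the list, stood at 537 and 375 CPM with the IntS4 and IntS6 labels. It was at 229 CPM with mts and 300 CPM with Pp2A-29B dsRNA, against 287 ± 78.2 CPM with B-gal dsRNA. The virus-induced gene vir-1 was highest with mts dsRNA, at 163 ± 4.61 CPM against 10.1 ± 1.57 CPM with B-gal dsRNA (log2 4.01, adjusted p = 8.5e-12), and was 2.91, 2.74 and 3.31 with the IntS4, IntS6 and Pp2A-29B labels. lama, for a protein similar to phospholipases, was 1.24, 1.01, 1.53 and 2.22 in the 4 groups. Decreases were seen in Ilp6, an insulin-like peptide gene (-1.41, -0.88, -2.03 and -2.09), and chinmo, a transcription factor gene that Stat92E sustains in testis stem cells (-0.56, -0.58, -1.01 and -0.90), all called. TotA was 3.45, 3.29 and 2.36 with the IntS4, IntS6 and Pp2A-29B labels on 7 B-gal counts, and TotM was lower with mts dsRNA alone (-1.84, adjusted p = 0.023). Reported targets thus moved in both directions. The Stat92E transcript was not called in these comparisons, and phosphorylation of its product was not measured.

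**Figure D4:**
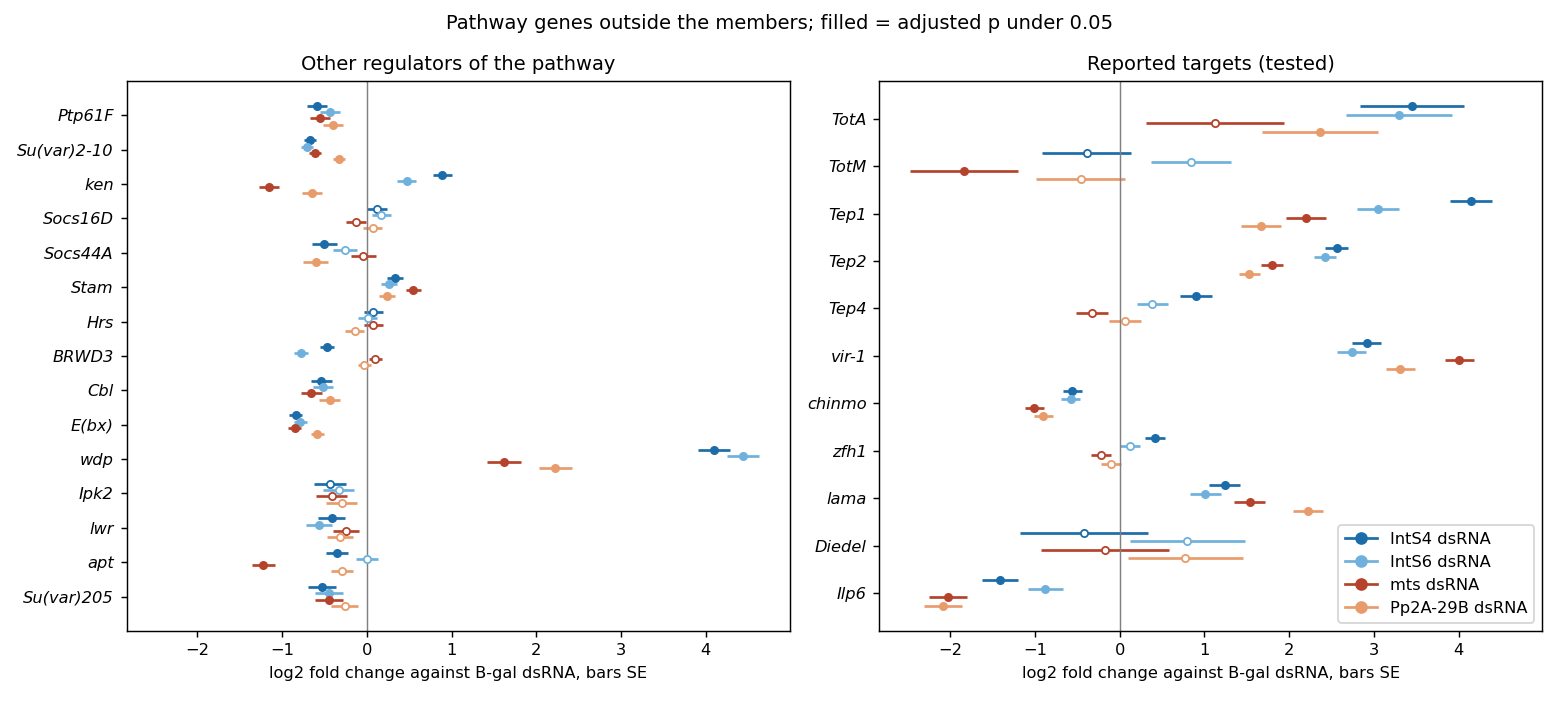
Log2 fold change against B-gal dsRNA of the tested regulators (left) and reported targets (right) outside the 8 members, with SE bars; filled points have an adjusted p under 0.05. wdp, Tep1, Tep2, vir-1 and lama lie right of 0 in all 4 comparisons, and ken lies on both sides.

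Over the 18 libraries, the genes whose log2 CPM followed a member most closely were ranked by Pearson's r, leaving out genes whose mean log2 CPM was under 2. Because the libraries fall into 6 groups that share B-gal and Mock levels, r mainly describes differences between groups. For upd1 these were Pvr (0.99), the receptor tyrosine kinase gene for PDGF- and VEGF-like ligands, CG42402 (0.986) and CG15034 (0.985). For upd2 they were CG14545, the kinase gene fray and the adenosine deaminase gene Adgf-A2 (0.97 each). For et they were Sec24CD (0.97), GM130 (0.96) and CG11857 (0.96), of which the first encodes a COPII coat protein and the next a Golgi matrix protein. upd3 followed the ubiquitin-conjugating enzyme gene eff (0.94), dome followed sle, tou (0.967 each) and lola (0.965), and Socs36E followed CG8036 (0.97). The best values for hop (0.83, Pgant7) and Stat92E (0.89, Eip63E) were lower.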

How the data were processed

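The deposited values are estimated counts for each gene in each library, without normalization. Within a tolerance of 0.005, 90.1% of all values were whole, and 22.9% of the members' values were not. The submitters' processing notes name Trimmomatic 0.39, featureCounts and the builds dm6 and BDGP6; no source used here gives the aligner. Symbols and coordinates came from the Ensembl annotation of BDGP6. Estimated counts were rounded, as the planned test needs whole counts. edgeR 4.0.16 (R 4.3.3) was fitted to all 18 libraries in 6 groups, with TMM factors and filterByExpr at a count minimum of 10 (8699 genes, 12 residual degrees of freedom). SE was taken as the absolute log2 fold change over the root of the F statistic. CPM divide each count by the TMM-scaled library total, ribosomal RNA included, and CPM per kb divides by the merged exon length. No 2 libraries were identical.

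The members and lists were chosen with earlier results of these data known. The naming rule takes all members, the 4 targeted genes, genes of the 2 pathway lists (regulators and reported targets) called with an absolute log2 fold change of at least 1 against B-gal dsRNA, and the 3 genes most correlated with each member. Zw, kel, CG6023, DPCoAC and Ubqn are named as overlapping or adjacent genes. Ptp61F, Tep4, tj and the single marker genes fall outside the rule and were chosen after their values were seen. Alternatives were DESeq2 1.42.0, RLE factors, no filter, ribosomal RNA left out, only the 2 groups compared, unrounded counts, a replicate block and leaving out each library. Same-letter libraries were taken as paired where the correlation of their deviations from group means exceeded 0.1 in all 3 pairs. That held for IntS4, IntS6 and mts against B-gal (lowest 0.39, 0.25 and 0.13), B-gal against Mock (0.57), Pp2A-29B against mts (0.18) and mts against IntS4 (0.12). In mts against B-gal and against IntS4, correlations between different letters reached 0.23 and 0.20. Not every library there correlated best with its own letter. The fit was also run on simulated counts with independent libraries and the same dispersion for every gene. That run leaves out the likeness of same-letter libraries, so it cannot speak to it.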

Additional observations from a re-analysis of the deposited data

How the results depend on the processing

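Calls that changed for upd2, et, hop, Stat92E and dome are given with those genes above. The count of members called between IntS6- and IntS4-labelled libraries was 0 and became 1 (upd2) with DESeq2, no filter, only the 2 groups compared or the replicate block (log2 -1.03, adjusted p = 0.023), and ran from 0 to 1 when libraries were left out. Between Pp2A-29B and mts dsRNA it was 1, and became 2 without the filter or with only the 2 groups, and 3 with the replicate block. Genes called in these comparisons were 569 and 848, and 943 and 1457 with the block. For Pp2A-29B against mts they ran from 266 to 1093 when a library was left out: 382 and 467 without mts set A or C and 266 and 330 without Pp2A-29B set A or B. The replicate block moved no other count of genes by over 1.5 times and changed no member's call beyond those given. Same-letter libraries did not pair by the correlation rule for IntS6 and IntS4, mts and IntS6, or Pp2A-29B and B-gal, IntS4 or IntS6, and among these every library correlated best with its own letter only for Pp2A-29B and IntS4. Signs turned only in values that were not called. For hop in B-gal against Mock (-0.0053) they were 0.0021 with RLE factors, 0.0026 with DESeq2, 0.0019 without the filter and 0.0064 without ribosomal RNA. For Stat92E in IntS6 against IntS4 (-0.01) they were 0.0016 without the filter, 0.0015 without ribosomal RNA and 0.0019 with 2 groups, and for upd2 in mts against IntS4 (-0.0281) 0.0565, 0.0317 and 0.0391. Leaving out a library in turn gave, for upd3, -0.13 to 0.29 in IntS4 against B-gal, -0.26 to 0.19 in IntS6 against B-gal, -0.25 to 0.17 in B-gal against Mock, -0.38 to 0.0801 in IntS6 against IntS4 and -0.23 to 0.0544 in Pp2A-29B against mts. For Stat92E it gave -0.0439 to 0.0839 in B-gal against Mock, -0.0584 to 0.0675 in IntS6 against IntS4, -0.0199 to 0.0324 in Pp2A-29B against IntS4 and -0.063 to 0.0629 in Pp2A-29B against IntS6. For hop it gave -0.0781 to 0.0453 in B-gal against Mock, -0.0121 to 0.0691 in IntS6 against IntS4 and -0.0267 to 0.0474 in mts against IntS6. In B-gal against Mock, upd2 ran from -4.00 to 0.0396, dome from -0.10 to 0.0178 and et from -0.0223 to 0.41. The ranges were -0.0095 to 1.34 for et in IntS4 against B-gal, -0.036 to 0.0676 for Socs36E in Pp2A-29B against B-gal, -0.20 to 0.25 for upd2 in mts against IntS4 and -0.0198 to 0.0611 for dome in Pp2A-29B against IntS4. The cause of these shifts was not tested. Depth limits upd2 in controls (3 counts in B-gal, 6 in Mock).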

Other observations

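Of the 10 nearest tested neighbours that are not members, 5 were called with the IntS4 label (3 higher, 2 lower), 4 with the IntS6 label (3 higher, 1 lower), 5 with mts (3 higher, 2 lower) and 4 with Pp2A-29B dsRNA (3 higher, 1 lower), all against B-gal dsRNA. The shares of all tested genes called were 47.1%, 45.7%, 51.4% and 38.8%, so the neighbours' shares lie near them. The genes ari-1, Sirt2 and Ubqn were called in none of these comparisons, and dsh, Tim8, CG5783 and Ssu72 in some. CG6023, 4833 bases upstream of upd1, had log2 fold changes of 3.37, 2.29, 2.18 and 4.27 with the IntS4, IntS6, mts and Pp2A-29B labels, all called, with 0.102 CPM in B-gal libraries. It passed the filter only through groups in which it was high. DPCoAC, 74 bases upstream of Stat92E, was 1.13, 1.33 and 0.89 with the IntS4, IntS6 and mts labels, all called, and 0.45 with Pp2A-29B dsRNA, not called. Ubqn, which starts 290 bases from dome on the other strand, was at log2 -0.05, 0.02, 0.18 and 0.10. The ovarian follicle transcription factor gene tj stood at 157 CPM with B-gal dsRNA in this haemocyte-like line and was lower in all 4 groups (-1.12, -0.84, -2.26 and -1.75). Of the 3 germline and follicle markers found, vas and bam stood at 0 and 0.177 CPM with B-gal dsRNA. They had group means of at most 0.406 CPM and were not tested.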
